A study of Rattus norvegicus with 6 samples.

Results

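The genes described here make the enzymes that reduce peroxides with electrons from thioredoxin or glutathione, in the renal cortex of rats given chlorothalonil. They were chosen by name, as Txnrd1, Txn1, Srxn1, Prdx1, Prdx6, Gpx1, Gpx2, Gpx3, Gpx4 and Gsr, and by the RefSeq transcript that the array files pair with each probe. The choice was made with earlier results of these data known, so shares set beside those of all features give no test of the group. All 10 genes were found among the 15645 gene symbols on the array, with 19 of its 61537 probes, and all 19 probes were well above background on all 6 arrays. The study had 2 groups of male Sprague-Dawley rats, 5 weeks old when bought. In the chlorothalonil group, 3 rats received 500 mg/kg/day of this chlorinated nitrile fungicide for 4 weeks, and in the corn oil group 3 rats received the vehicle for 4 weeks. RNA of each animal's renal cortex was hybridised to 1 Agilent 1-colour array. The source name of chlorothalonil replicate 3 gives ethylenediamine dihydrochloride, while its other labels give chlorothalonil, so results are also given without it. All 3 chlorothalonil arrays lay on 1 slide and all 3 corn oil arrays on another, scanned on another day, so treatment cannot be told apart from slide and scan in any value below.

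Peroxiredoxins and glutathione peroxidases remove hydrogen peroxide and lipid peroxides. Peroxiredoxins such as Prdx1 are recharged by thioredoxin (Txn1), which thioredoxin reductase (Txnrd1) reduces with NADPH. Sulfiredoxin (Srxn1) repairs a peroxiredoxin of this kind that has been oxidised too far. Glutathione peroxidases draw on glutathione, which glutathione reductase (Gsr) restores, also with NADPH. Thioredoxin reductase and the glutathione peroxidases listed here are selenoproteins, and the kidney is the main source of the secreted form, Gpx3. Several of these genes, Srxn1 and Txnrd1 among them, are known targets of the transcription factor NRF2, which binds antioxidant response elements in their regulatory regions.

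Promoter sequences from RefSeq (build GRCr8, 250 bases before to 50 bases after a start site) are shown for the 4 member genes whose window held one of 2 spellings of the core of that element, to show where it lies. Windows were given for 8 of the 10 genes, 11 windows in all, and none for Prdx6 and Gsr. The core TGACNNNGC, searched on both strands, occurred in 3 of the 11 windows and in 12.1% of 33469 windows of all genes. The narrower spelling TGANTCAGC, which was added after the Srxn1 window had been read and overlaps the first in Prdx1, occurred in 2 of the 11 and in 1.11% of all windows. The capitals mark the matches. In Srxn1 the match runs as printed, from 5 bases before the start site to the fourth base from it on. In the other 3 it reads on the opposite strand, with its first printed base 78 bases before the start in Txnrd1, 135 in Prdx1 and 13 in Gpx2.
Srxn1, chr3:161064562-161064861, plus strand: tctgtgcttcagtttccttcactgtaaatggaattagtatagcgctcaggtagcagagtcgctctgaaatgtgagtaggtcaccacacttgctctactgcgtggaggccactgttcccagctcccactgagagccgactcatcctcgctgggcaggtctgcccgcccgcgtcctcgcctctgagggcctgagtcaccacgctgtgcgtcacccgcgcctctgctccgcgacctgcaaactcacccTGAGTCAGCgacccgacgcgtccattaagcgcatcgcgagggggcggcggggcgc
Txnrd1, chr7:22755855-22756154, minus strand: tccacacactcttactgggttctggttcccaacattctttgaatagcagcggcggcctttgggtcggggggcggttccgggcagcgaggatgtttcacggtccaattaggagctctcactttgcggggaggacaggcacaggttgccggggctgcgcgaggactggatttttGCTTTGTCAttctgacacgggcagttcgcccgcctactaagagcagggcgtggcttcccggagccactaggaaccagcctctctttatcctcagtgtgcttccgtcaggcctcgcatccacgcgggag
Prdx1, chr5:135383656-135383955, plus strand: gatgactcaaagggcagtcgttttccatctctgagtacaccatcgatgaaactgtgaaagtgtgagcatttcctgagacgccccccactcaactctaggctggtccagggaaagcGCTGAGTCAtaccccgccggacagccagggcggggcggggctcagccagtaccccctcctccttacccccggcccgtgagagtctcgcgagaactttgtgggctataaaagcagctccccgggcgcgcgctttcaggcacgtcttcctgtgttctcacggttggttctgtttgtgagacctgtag
Gpx2, chr6:101229984-101230283, minus strand: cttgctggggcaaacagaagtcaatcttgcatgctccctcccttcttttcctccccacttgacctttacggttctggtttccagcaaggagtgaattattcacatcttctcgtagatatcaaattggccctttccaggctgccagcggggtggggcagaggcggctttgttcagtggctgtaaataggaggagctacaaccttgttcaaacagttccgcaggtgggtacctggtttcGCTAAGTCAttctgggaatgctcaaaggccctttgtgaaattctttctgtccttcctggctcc
The windows of Txn1, Gpx1, Gpx3 and Gpx4, and the second window of Txnrd1, held neither spelling. A match describes letters in this window and is not evidence of binding, and a window with none says nothing of elements elsewhere.

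With chlorothalonil, 4 of the 10 genes rose and 0 fell. These were Srxn1, by 5.98-fold, Txnrd1, by 1.85-fold, Txn1, by 1.60-fold, and Gsr, by 1.54-fold. In this fit the sulfiredoxin, the thioredoxin pair and the glutathione reductase were called and no peroxidase was. Among 16 alternative fits Prdx6 and Gpx4 were each called in 2 and Gpx1 in 1. Of all 29115 features tested, 3.13% changed, 1.3% being higher and 1.83% lower. Among the 11926 features with a gene symbol 2.14% changed, with 1.44% higher and 0.696% lower. The test was limma on log2 signals relative to each array's 75th percentile, the scale of all levels below, fitted to all features. A feature was called where its p after Benjamini-Hochberg adjustment was under 0.05, and each gene is represented by its brightest probe. In 6 of the 10 genes every chlorothalonil array lay above every corn oil array, against 13.6% of all features, and in 1 gene, Gpx1, every chlorothalonil array lay below, against 14.1%. The median log2 fold change was 0.35 over the 10 genes and 0.00 over all features (chlorothalonil minus corn oil throughout). In whole cortex a higher signal can mean more cells of a type or more RNA per cell, which cannot be told apart.

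**Figure D1:**
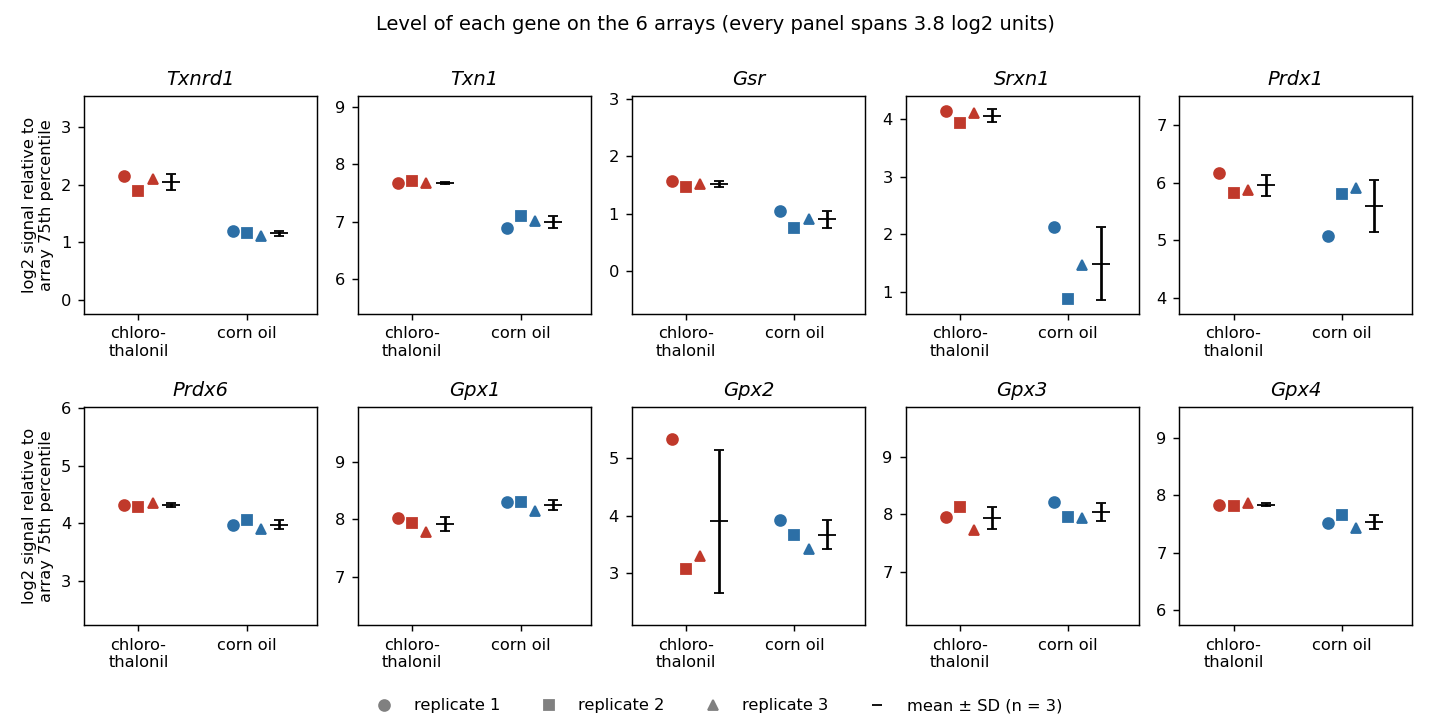
Log2 signal of the 10 genes relative to the array's 75th percentile, 1 panel per gene, with a point per array (chlorothalonil left, corn oil right) and the mean ± SD of each group beside it. The groups are apart for Txnrd1, Txn1, Gsr, Srxn1, Prdx6, Gpx1 and Gpx4 and overlap for Prdx1, Gpx2 and Gpx3, and in Gpx2 chlorothalonil replicate 1 lies far above the other 5 arrays.

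Srxn1, the sulfiredoxin that returns overoxidised peroxiredoxins such as Prdx1 to work, gave the largest difference of the 10. Its log2 level was 4.14, 3.93 and 4.12 in chlorothalonil replicates 1 to 3, against 2.13, 0.86 and 1.46 in corn oil replicates 1 to 3. The treated animals were close together (SD 0.11), the corn oil animals were not (SD 0.63), and the groups were 1.81 apart at their nearest. The log2 fold change was 2.58 ± 0.31 (SE, n = 3 per group), with an adjusted p of 0.0186 in limma. The second Srxn1 probe, dimmer by several log2 units, had levels of −2.16, −2.40 and −2.31 with chlorothalonil and −3.97, −4.00 and −4.06 with corn oil. Here the corn oil animals were close together, and the spread seen among them on the bright probe did not recur. This probe's log2 fold change was 1.72 ± 0.08, with an adjusted p of 0.0018 in a limma fit over all 39862 probes kept. The probes thus agreed in direction and in the separation of the groups, and differed in size, 5.98-fold on the bright probe and 3.30-fold on the dim one. With corn oil the processed signal of the dim probe was only 55.5 to 59.8, against 1740 to 3920 on the bright one. Whether so low a signal narrowed its spread or its fold change was not tested.

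Txnrd1, the cytosolic selenoenzyme that passes electrons from NADPH to thioredoxin, rose on all 4 of its probes. On the brightest, the log2 level was 2.16, 1.88 and 2.09 with chlorothalonil and 1.20, 1.16 and 1.11 with corn oil. The lowest treated animal lay 0.69 above the highest corn oil animal. With chlorothalonil the brightest probe gained 0.89 ± 0.09 (SE) on the log2 scale, with an adjusted p of 0.0124 in limma. The other 3 probes gave 0.84 ± 0.12, 0.94 ± 0.09 and 1.21 ± 0.11, and each passed in the fit over probes, where the adjusted p values of the 4 lay between 0.0109 and 0.0293. On none of the 4 did the groups overlap.

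Txn1, the thioredoxin that Txnrd1 reduces, was measured by 1 probe, at 7.67, 7.70 and 7.67 with chlorothalonil and at 6.89, 7.09 and 7.02 with corn oil. The treated animals were almost identical, with an SD of 0.02, against 0.10 among the corn oil animals. Txn1 thus differed by 0.68 ± 0.07 (SE) on the log2 scale, with an adjusted p of 0.0136 in limma. Gsr, which turns oxidised glutathione back to its reduced form, was also measured by 1 probe. Its level was 1.57, 1.46 and 1.52 with chlorothalonil and 1.05, 0.74 and 0.91 with corn oil, so the groups lay 0.42 apart. Its log2 fold change was 0.62 ± 0.09, with an adjusted p of 0.0343. Over probes, 8 of the 19 changed, all of them higher, against 2.7% of all probes that changed and 1.26% that were higher. These were both probes of Srxn1, the 4 of Txnrd1 and those of Txn1 and Gsr.

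**Figure D2:**
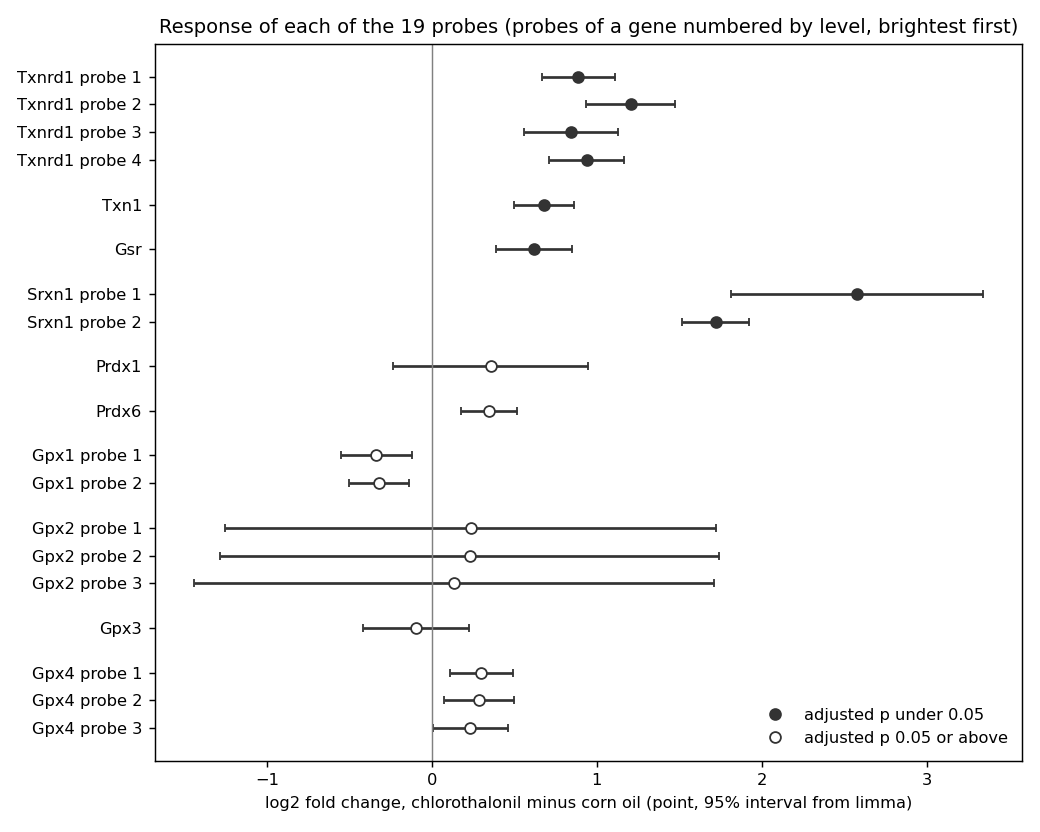
Log2 fold change (chlorothalonil minus corn oil) of each of the 19 probes, with its 95% interval from the limma fit over all probes, and probes of a gene numbered by level with the brightest first. Filled points passed the adjusted p of 0.05, and probes of the same gene lie on the same side of 0 in every gene with several probes.

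The 2 peroxiredoxins did not pass. Prdx1, an abundant cytosolic peroxiredoxin, had levels of 6.17, 5.82 and 5.87 with chlorothalonil and 5.07, 5.81 and 5.91 with corn oil. Corn oil replicate 1 stood well below the other 5 arrays, and apart from it the groups were alike in range. The log2 fold change was 0.36 ± 0.24 (SE), with a 95% interval from −0.24 to 0.95 and an adjusted p of 0.471 in limma, and without corn oil replicate 1 it was 0.09. Prdx6, which uses a single reactive cysteine and glutathione in place of thioredoxin, had levels of 4.32, 4.27 and 4.36 with chlorothalonil and 3.97, 4.05 and 3.90 with corn oil. These groups did not overlap, and the log2 fold change was 0.34 ± 0.07 with an interval from 0.18 to 0.51, but its adjusted p was 0.066. With a trend and robust variance prior the adjusted p of Prdx6 was 0.0231, and with normexp background correction 0.0242.

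None of the 4 glutathione peroxidases passed in limma, and they did not go the same way. An unadjusted p under 0.05 was reached by Gpx1 and Gpx4 among them, by 7 of the 10 genes, and by 19.7% of all features. Gpx1, the cytosolic enzyme, was at 8.02, 7.94 and 7.78 with chlorothalonil and at 8.29, 8.30 and 8.15 with corn oil. All treated animals lay below all corn oil animals, by a margin of 0.13. Gpx1 had a log2 fold change of −0.34 ± 0.09 (SE), with an interval from −0.55 to −0.12 and an adjusted p of 0.12, and the second Gpx1 probe gave −0.32 ± 0.07. Gpx4, which reduces peroxides within membrane lipids, had levels of 7.84, 7.81 and 7.86 with chlorothalonil and 7.51, 7.67 and 7.44 with corn oil. The treated animals lay above the corn oil animals by 0.15 or more, and the log2 fold change was 0.30 ± 0.08 with an interval from 0.11 to 0.49 and an adjusted p of 0.119. Its other 2 probes gave 0.29 ± 0.09 and 0.23 ± 0.09. Gpx3, the secreted form, was at 7.96, 8.12 and 7.73 with chlorothalonil and at 8.21, 7.96 and 7.93 with corn oil. The groups overlapped, with a log2 fold change of −0.10 ± 0.13, an interval from −0.42 to 0.23 and an adjusted p of 0.738.

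Txn1, Gpx1, Gpx3 and Gpx4 are among the brightest genes on these arrays, and their size depended on the scaling. Of the 359 features with a mean log2 level of at least 7, the median log2 fold change was 0.12, and −0.06 after quantile normalization. With that normalization Gpx1 was called, at −0.57 with an adjusted p of 0.0294, and Gpx4 was at 0.11 with an adjusted p of 0.381. Gpx3 moved to −0.33, and Txn1 was at 0.53 and still passed. Gpx4 passed with normexp background correction and with the trend and robust prior, with adjusted p values of 0.0454 and 0.048. Neither of these is another scaling, and the prior left its log2 fold change at 0.30. In the same 2 fits Gpx1 had adjusted p values of 0.108 and 0.0529. The difference between Gpx4 and Gpx1 within each array, given with the paired comparisons below, moved less with the scaling.

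Gpx2, the glutathione peroxidase best known from the gut epithelium, was decided by 1 animal. On its brightest probe the log2 level was 5.33, 3.07 and 3.30 with chlorothalonil, against 3.91, 3.67 and 3.41 with corn oil. Chlorothalonil replicate 1 lay far above every corn oil animal, while the other 2 treated animals lay below the lowest. The 6 arrays had the same order on the other 2 probes. These read 4.10, 1.84 and 2.01 and 1.12, −1.17 and −1.07 with chlorothalonil, and 2.65, 2.49 and 2.12 and −0.16, −0.49 and −0.88 with corn oil. Its log2 fold change was 0.24 ± 0.61 (SE), with an interval from −1.26 to 1.73 and an adjusted p of 0.87 in limma. Without chlorothalonil replicate 1 it was −0.48, with an adjusted p of 0.299. The 4 genes that rose did not share this pattern, with an SD among treated animals of 0.11 for Srxn1, 0.14 for Txnrd1, 0.02 for Txn1 and 0.05 for Gsr, against 1.24 for Gpx2. A call favours genes with a small spread, and the uncalled Prdx6 and Gpx4 also had small SDs, of 0.04 and 0.03.

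**Figure D3:**
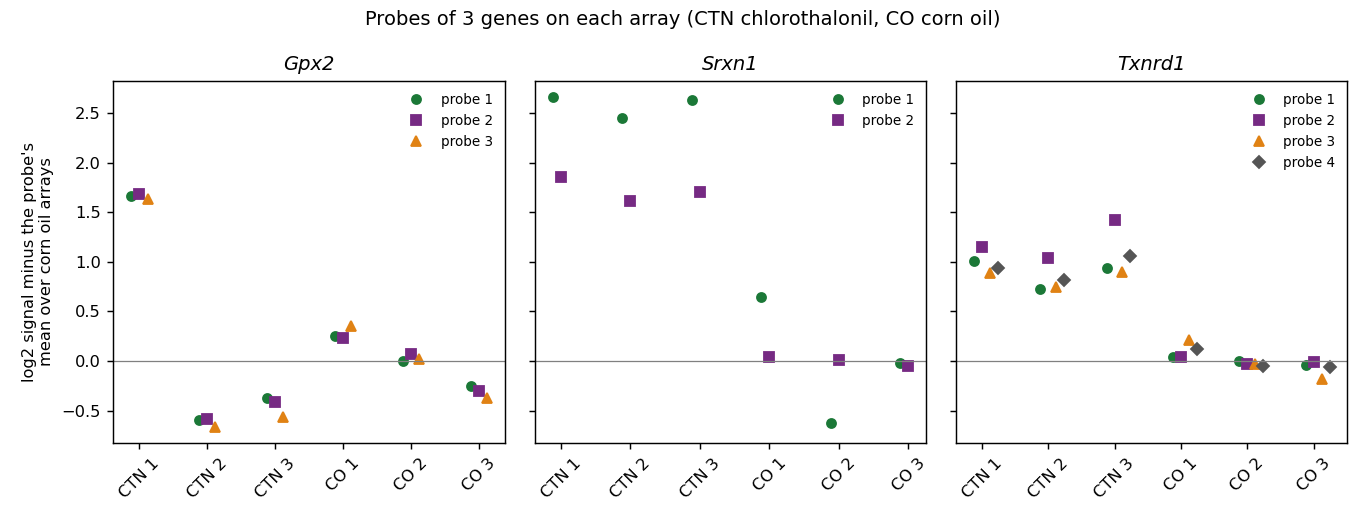
Log2 signal of each probe minus its own mean over the corn oil arrays, for Gpx2, Srxn1 and Txnrd1 on the 6 arrays, with probes numbered by level and the brightest first. The 3 Gpx2 probes lie close together on each array and are far above 0 in chlorothalonil (CTN) replicate 1 alone of the chlorothalonil and corn oil (CO) arrays, while the probes of Srxn1 and Txnrd1 are high in all 3 treated animals, and the bright Srxn1 probe spreads among the corn oil arrays where the dim one does not.

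Some of these genes were also compared 2 at a time by their difference within each array, which a single scaling factor per array does not touch. The 7 pairs set a reductase beside its substrate or beside the other reductase, sulfiredoxin beside each peroxiredoxin, and glutathione peroxidases beside each other. In them the smallest p that the 20 splits of 6 arrays allow is 0.1 in an exact two-sided permutation test, so none could pass 0.05. Srxn1 responded by 2.22 more than Prdx1 on the log2 scale, the difference relative to its corn oil mean being 2.09, 2.22 and 2.36 with chlorothalonil and 1.17, −0.83 and −0.34 with corn oil. Srxn1 exceeded Prdx6 by 2.23, and in both pairs the groups did not overlap (exact p = 0.1, and 0.175 adjusted over the 7 pairs). Gpx4 minus Gpx1 stood at 0.53, 0.59 and 0.79 with chlorothalonil and at −0.07, 0.07 and 0.00 with corn oil, a difference in response of 0.64 with the same p values. Txnrd1 exceeded Gsr by 0.27, again with exact p = 0.1, the nearest treated and corn oil arrays being 0.1611 and 0.1579. Txnrd1 and Txn1 differed by 0.21 with overlapping groups (exact p = 0.2), and by 0.35 after quantile normalization. Gpx2 against Gpx1 and against Gpx3 differed by 0.57 and 0.33 (exact p = 0.7 and 0.9), by 0.79 and 0.56 after quantile normalization, and by −0.09 and −0.37 without chlorothalonil replicate 1. Gpx4 minus Gpx1 was 0.68 after quantile normalization.

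The 4 calls held together without corn oil replicate 1, and at least 2 of them were lost without any other single array, while the fold changes kept their direction. Without a single array, the log2 fold change lay between 2.27 and 2.90 for Srxn1, 0.83 and 0.97 for Txnrd1, 0.63 and 0.73 for Txn1, and 0.54 and 0.69 for Gsr. The number of the 10 genes called in limma was 0, 1 and 0 without chlorothalonil replicates 1, 2 and 3, and 4, 2 and 0 without corn oil replicates 1, 2 and 3. Over all features the share called fell at the same time, to between 0.381% and 1.33%. Without chlorothalonil replicate 3, the array with the conflicting source name, 0.616% of features were called. In that fit the adjusted p was 0.0839 for Srxn1, 0.0612 for Txnrd1, 0.0632 for Txn1 and 0.11 for Gsr. An unadjusted limma p under 0.05 was reached there by 7 of the 10 genes and by 4979 of 29713 features. Without corn oil replicate 3 the 4 adjusted p values were 0.0728, 0.0554, 0.0591 and 0.101, and without chlorothalonil replicate 1 they were 0.0787, 0.0572, 0.0645 and 0.122. Without chlorothalonil replicate 2 only Txnrd1 passed, with Srxn1 at 0.0758, Txn1 at 0.0668 and Gsr at 0.108, and without corn oil replicate 2 Txnrd1 was at 0.0506 and Gsr at 0.0786. With no filter on dim probes, which raised the number of features tested to 45432, the adjusted p values were 0.0562 for Srxn1 and Txn1, 0.0511 for Txnrd1 and 0.1 for Gsr.

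**Figure D4:**
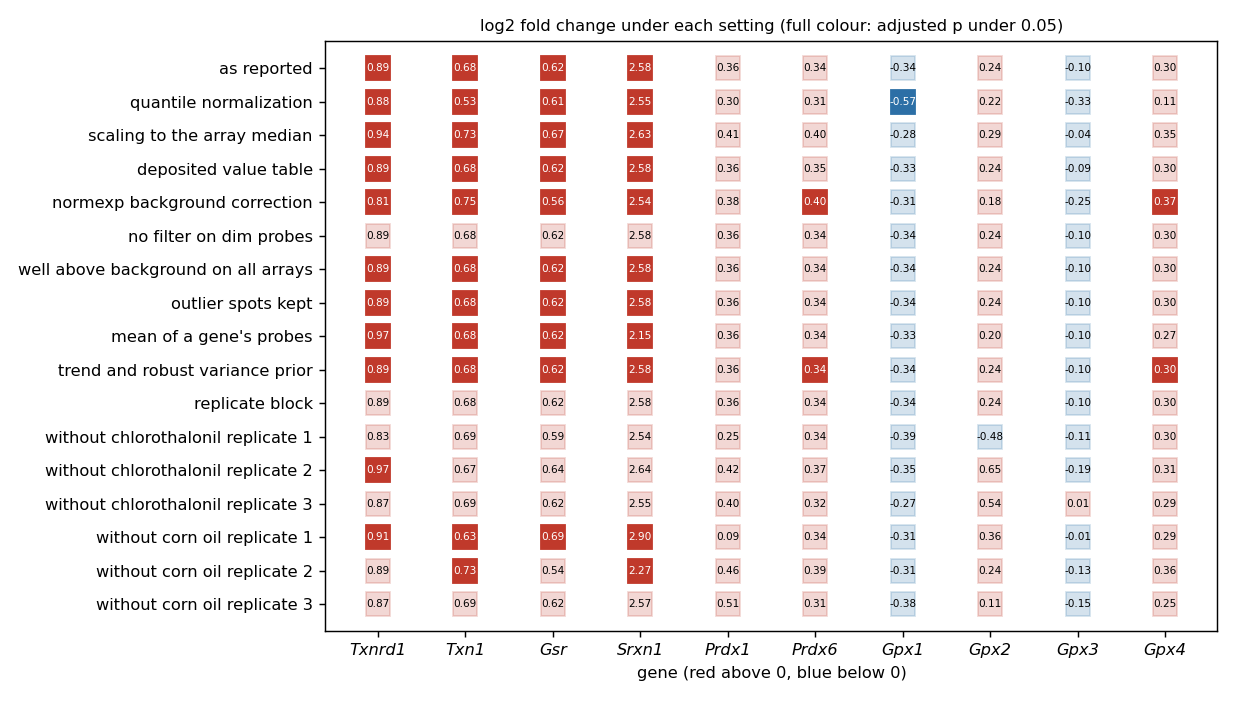
Log2 fold change (chlorothalonil minus corn oil) of the 10 genes, printed in each square, under the reported setting and 16 alternatives, with red above 0, blue below 0 and full colour where the adjusted p was under 0.05. Srxn1, Txnrd1, Txn1 and Gsr are red in every row while their call comes and goes, and Gpx2 and Gpx3 change side in 1 row each.

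The other genes of peroxide removal and selenoprotein biology gave few calls. Of 48 such genes in 6 lists, 42 were measured, and of these Cat and Sod2 rose, 0 fell and 40 did not pass. The share called was 4.76%, against 3.13% of all features. Among features with a gene symbol 2.14% were called, with 1.44% higher. With the trend and robust prior 6 were called, 14.3% against 4.52% of all features, and with normexp 4, 9.52% against 4.56%. Their median log2 fold change was 0.07. Cat, the catalase of peroxisomes, had levels of 3.92, 3.93 and 3.50 with chlorothalonil and 3.08, 2.95 and 2.98 with corn oil. Chlorothalonil replicate 3 was the lowest of the treated animals and still lay 0.42 above the highest corn oil animal. The log2 fold change of Cat was 0.78 ± 0.13 (SE), with an adjusted p of 0.0425 in limma, and the call held without chlorothalonil replicate 3 (0.0369) and was lost without any other single array (0.0997 to 0.136). Sod2, the superoxide dismutase of mitochondria, which makes hydrogen peroxide, had levels of 3.24, 3.43 and 3.42 with chlorothalonil and 2.91, 2.87 and 2.86 with corn oil. Its log2 fold change was 0.48 ± 0.08 with an adjusted p of 0.0377, which no fit without an array kept (0.0634 to 0.126), and the mean of its probes gave 0.29 with 0.0661.

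Among 9 other measured thioredoxin and glutaredoxin genes 0 were called in limma, and 2 had p under 0.05 before adjustment. Of all features 3.13% were called and 19.7% had p under 0.05 before adjustment, so 0 calls in a list this short, or in those that follow, sets it apart from nothing. Their median log2 fold change was −0.06. The smallest p there was that of Txndc17, a thioredoxin-like protein, at −0.26 ± 0.07 (SE) with an adjusted p of 0.125 in limma. The mitochondrial thioredoxin Txn2 and its reductase Txnrd2, picked with their values in view, were at 0.27 ± 0.14 and −0.23 ± 0.12. Glrx, a glutaredoxin picked likewise, was at −0.56 ± 0.18 with an adjusted p of 0.18. Of 9 other peroxiredoxin, glutathione peroxidase and sestrin genes, 0 passed in limma, and before adjustment 3 had p under 0.05. The nearest was Gpx6, at −0.73 ± 0.15 with an adjusted p of 0.0666. The mean of its probes gave −0.19 with 0.288, while normexp and the trend and robust prior called it (0.0321 and 0.0444). The mitochondrial Prdx3, picked with its value in view, was at 0.28 ± 0.06. Whether these differ in response from Txnrd1 and Txn1 was not tested.

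Genes that make selenoproteins showed no call, 0 of 7, with 2 at an unadjusted limma p under 0.05. Sephs1, named for selenophosphate synthetase, had the smallest p, at −0.25 ± 0.07 (SE) with an adjusted p of 0.126. Among 10 other selenoproteins there were 0 calls in limma, and 3 genes had p under 0.05 before adjustment. Selenos, a selenoprotein of the endoplasmic reticulum, was at 0.29 ± 0.06 with an adjusted p of 0.0809, and Selenop, the plasma carrier of selenium, picked with its value in view, at 0.36 ± 0.08. Selenoi, an enzyme of phospholipid synthesis picked likewise, had a mean of −0.97 ± 0.02 (SD, n = 3) with chlorothalonil and levels of 0.83, −0.75 and 0.77 with corn oil, so that corn oil replicate 2 stood with the treated animals. Its log2 fold change was −1.25 ± 0.43 with an adjusted p of 0.191, and the mean of its probes gave −0.62 with 0.316. Leaving out corn oil replicate 2, the array that differed from its group, gave 0.00835, and leaving out any other gave 0.336 to 0.361. Of 3 methionine sulfoxide reductases, 0 passed in limma even before adjustment, with Msrb2 at 0.12 ± 0.06 and an adjusted p of 0.364.

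**Figure D5:**
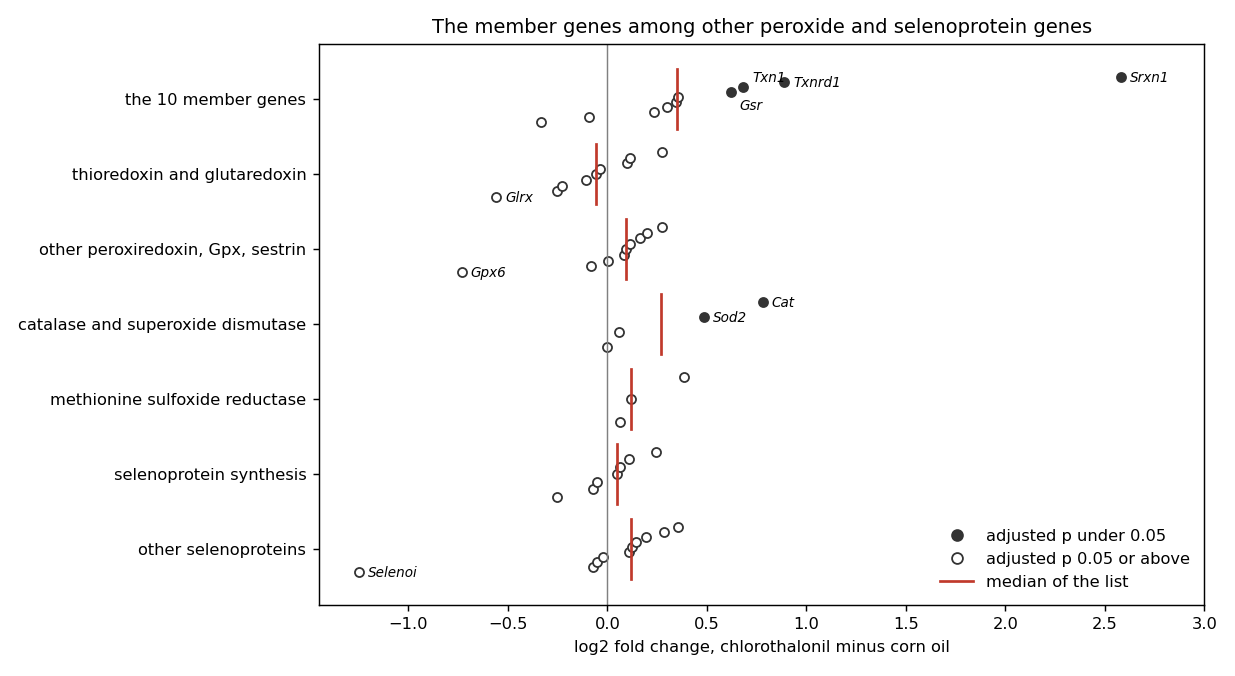
Log2 fold change (chlorothalonil minus corn oil) of the 10 member genes and of 42 other measured genes in 6 lists, 1 point per gene, filled where the adjusted p was under 0.05, with a red line at each list's median. Filled points lie among the member genes (Srxn1, Txnrd1, Txn1, Gsr) and in the catalase and superoxide dismutase list (Cat, Sod2).

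The genes nearest in pattern were found by the root mean square distance between log2 values centred on each gene's mean, over the 6 arrays and among 11909 named features. This measure favours genes with the same size of difference and gives no test. Nearest to Srxn1 were Rgs11, a regulator of G protein signalling, at a distance of 0.35, the olfactory receptor gene Or1e1c, which was dim, and Abcc3, an exporter of conjugates, at 0.41. Nearest to Txnrd1 were Tkt, the transketolase of the pentose phosphate pathway, at 0.08, Nox4, an NADPH oxidase that makes hydrogen peroxide in the kidney, and Tpsb2, a mast cell tryptase. Nearest to Txn1 were Taldo1, the transaldolase of the same pathway, at 0.05, the retinal dehydrogenase Aldh1a1 and Atp5if1, an inhibitor of the ATP synthase. Nearest to Gsr were Ppp1r3b, a glycogen phosphatase subunit, Abcc1, an exporter of glutathione conjugates, and Bach1, a repressor at antioxidant response elements, all at 0.08. Tpsb2 and Ppp1r3b were dim too, with log2 levels from −5.01 to −3.80 and from −5.13 to −4.24. Nearest to Gpx2, listed here although it is not among the 4 largest differences, were Slc9a5, Ddit4 and Bcl6 at 0.28 to 0.35. All 3 were highest in chlorothalonil replicate 1, and Slc9a5 was dim on the other arrays.

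Probes well above background made up 66.6% to 67.8% of each array with chlorothalonil and 62.1% to 66.8% with corn oil. All 9 proximal tubule markers were well above background on all 6 arrays. Their summed linear level, in units of the array's 75th percentile, was 1750 to 1825 with chlorothalonil and 1506 to 1696 with corn oil, with 0 of 9 called. A linear sum gives most weight to the brightest probes, and the 9 log2 fold changes had both signs, 5 above 0 and 4 below, with a median of 0.05. Of 4 with an unadjusted limma p under 0.05, Slc13a3 (0.34) and Slc34a1 (0.27) were higher, and the glucose transporter Slc5a2 (−0.35) and Slc5a12 (−0.27) were lower. The 7 of 8 red blood cell markers that were measured summed to 568 to 615 with chlorothalonil and 483 to 502 with corn oil. Of these 7, 0 were called and 5 had an unadjusted limma p under 0.05, against 19.7% of all features. All 7 log2 fold changes were above 0. Both sums were higher in every treated animal, a separation seen in 13.6% of all features. Their part in the differences above was not tested. The sums of 8 distal tubule and collecting duct markers (524 to 624 and 500 to 595) and of 7 of 8 macrophage markers (18.9 to 19.4 and 14.9 to 24.6), chlorothalonil first, overlapped. The macrophage marker Cd163 was not well above background on any array. In each list 0 were called and 1 gene had an unadjusted limma p under 0.05, Calb1 (−0.56) and Adgre1 (−0.47). Both had every treated array below every corn oil array. The log2 fold changes were 5 above 0 and 3 below in the first list, and 3 and 4 in the second.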

How the data were processed

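Each of 6 rat renal cortex RNA samples was measured on 1 Agilent 1-colour array. The deposited intensity is the processed signal, which per the file headers came from Agilent Feature Extraction (version 10.7 per the submitters' processing notes) with background subtracted and spatial trends removed within the array and no scaling between arrays. The raw median intensity of spot and background, deposited in the same files, served one alternative. The authors also deposited a table of values that are each a ratio of the processed signal to a constant of its array, near that array's 75th percentile. This was found by dividing one by the other and is stated in no label. Its column medians are 0.105, 0.105 and 0.106 (chlorothalonil) and 0.107, 0.109 and 0.112 (corn oil), on a linear scale and not centred.

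Values were log2 of the processed signal over the array's 75th percentile. Outlier spots (0 to 9 per array) were left out. Probes well above background on all 3 arrays of a group were kept (39862) and named by accession through a RefSeq table (GRCr8), 28206 of 61537 probes matching, and the brightest probe of a gene was taken, giving 29115 features. The array headers name an older build, so array probes carry no coordinates. No probe sequence was used, so signal shared with near-identical gene copies was not checked. The test between groups was limma 3.58.1 (R 4.3.3), and adjusted p values are from it. With 3 arrays per group small changes can be missed, so a gene not called is not shown to be unchanged. Precision is limited by the number of arrays. The design text calls the 3 samples of a group biological replicates.

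The genes and lists were chosen with earlier results of these data known. The rule for names took all members, up to 4 called genes per list or else the one with the smallest p, and the 3 nearest patterns of the 4 members with the largest differences. Same-numbered arrays of the 2 groups deviated together only weakly, with r of 0.09, 0.02 and 0.05 across features. Arrays with different numbers gave r from −0.09 to 0.05. The numbers were not taken as pairs in the reported fit, and a fit with them as a block is among the alternatives. Alternatives were other scalings, the deposited table, normexp on the median signal (offset 50), other filters, outlier spots kept, the mean of probes, another variance prior, the replicate number as a block and each array left out. A block for the slide was planned and could not be fitted, since each slide holds 1 group.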

Additional observations from a re-analysis of the deposited data

How the results depend on the processing

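The direction of Srxn1, Txnrd1, Txn1, Prdx1, Prdx6, Gpx1, Gpx4 and Gsr held in all 16 alternatives. Gpx2 reversed to −0.48 without chlorothalonil replicate 1 (from −0.48 to 0.65 over the fits without 1 array), and Gpx3 to 0.00785 without chlorothalonil replicate 3 (from −0.19 to 0.00785). Of the 10 alternatives that keep all arrays, some left the members' log2 fold changes and SE almost unchanged and so test little. These include the deposited table, the outlier spots kept and the filter for probes well above background on all 6 arrays. The 4 calls held in 8 of the 10 alternatives. The exceptions were no filter on dim probes, with 0 of 10 genes, 2 of 19 probes, 0 of the other listed genes and 172 features called, and the replicate number as a block. With that replicate block 0 genes, 0 probes, 0 other listed genes and 0 features passed in limma. An unadjusted p under 0.05 was reached by 7 of the 10 genes and by 5273 of 29115 features. The 4 adjusted p values were 0.0782 for Srxn1, 0.0805 for Txnrd1, 0.0861 for Txn1 and 0.0983 for Gsr. The fit with the block has fewer residual degrees of freedom, and its SE differed too. The SE was lower for Srxn1 (0.23 against 0.31), Txnrd1 (0.087 against 0.090) and Gsr (0.077 against 0.094). For Txn1 it was higher (0.0745 against 0.0735). Why the calls were lost was not tested. Not every array correlated best with its own number. Among the other listed genes, in place of 2 calls there were 4 with normexp (9.52%, against 4.56% of all features), 6 with the trend and robust prior (14.3%, against 4.52%) and 1 with the mean of probes. Leaving out 1 array gave 112 to 388 features (912 with all arrays), 0 to 4 of the 10 genes, 1 to 8 of the 19 probes and 0 to 1 of the other listed genes. Scaling to the array median gave 435 features higher and 368 lower, against 378 and 534. The differences between 7 pairs of genes were recomputed under quantile normalization, the mean of probes and each array left out. Only those of Gpx2 with Gpx1 and Gpx3 changed sign, both without chlorothalonil replicate 1. Quantile normalization moved Txnrd1 minus Txn1 to 0.35 and Gpx2 minus Gpx3 to 0.56, against 0.21 and 0.33. The 19 probes of the 10 genes were well above background on all 6 arrays.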
